A study of Mus musculus with 6 samples.

Results

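The 10 genes described here encode enzymes that make bile acids, carriers that move bile acids and phospholipid across the hepatocyte membrane, and 2 nuclear receptors that govern the pathway. They were taken by gene symbol, and all 10 were found among the 16375 genes of the deposited table. Livers of mice given inosine, the purine nucleoside formed when adenosine is deaminated, by intraperitoneal injection (3 libraries) were set against livers of control mice (3 libraries) by bulk RNA sequencing. The sources used here give neither what the control animals received nor the strain, sex, age, dose and time of collection of either group. Separate animals per library are nowhere stated, so every p-value measures the spread between these libraries, which may be technical.

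Bile acids are made from cholesterol in hepatocytes. The classical route begins with Cyp7a1 and the alternative route with Cyp27a1 followed by Cyp7b1, while Cyp8b1 steers the product towards cholic acid. The acids are joined to taurine by Baat, secreted into the canaliculus by Abcb11 and taken back from portal blood by Slc10a1. Bile acids that accumulate activate the receptor FXR (Nr1h4), which induces the corepressor SHP (Nr0b2), and SHP in turn restrains Cyp7a1 and Cyp8b1.

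Control library 1 stood apart from the other controls on genes of the daily clock, so results that rest on it are also given without it. None of the 10 genes passed the test between inosine and control livers once p-values were adjusted over all genes. By edgeR's quasi-likelihood test and Benjamini-Hochberg adjustment, 0 of 10 had an adjusted p under 0.05, where 1 of the 12326 genes tested (0.00811%) did. DESeq2 called 0 of 10 at the same adjusted threshold, against 1.92% of genes. The authors' deposited q-values, which per their header also come from DESeq2, were under 0.05 for 0 of 10, against 1.17% of genes. The lowest of these q-values among the 10 was 0.239, for Abcb4. At an unadjusted edgeR p under 0.05 there was 1 of 10, Abcb4, against 14.5% of all genes tested. The log2 fold changes of inosine over control were positive for 5 genes and negative for 5, with a median of 0.00, and the median of all genes tested was -0.01. Levels are given in TPM, transcripts scaled to a fixed total per library and corrected for transcript length, and fold changes come from counts. In bulk liver, fewer cells of a type and less RNA per cell cannot be told apart.

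The 10 genes spanned a wide range of levels. Over the 6 libraries Slc10a1 averaged 711 TPM (lowest 618, highest 823), Cyp27a1 309 TPM, Baat 207 TPM, Cyp8b1 197 TPM, Cyp7a1 159 TPM, Abcb11 133 TPM, Nr1h4 106 TPM, Abcb4 98.0 TPM, Nr0b2 52.8 TPM and Cyp7b1 40.2 TPM. Slc10a1 lay above Cyp27a1, and Cyp27a1 above Baat, in every library. From Baat downwards each gene's range overlapped that of the next. Together the 10 genes made up 0.199% to 0.217% of the TPM of an inosine library and 0.178% to 0.210% of the TPM of a control library. All 10 passed the filter on low counts, with between 514 and 15047 estimated counts per gene and library.

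**Figure D1:**
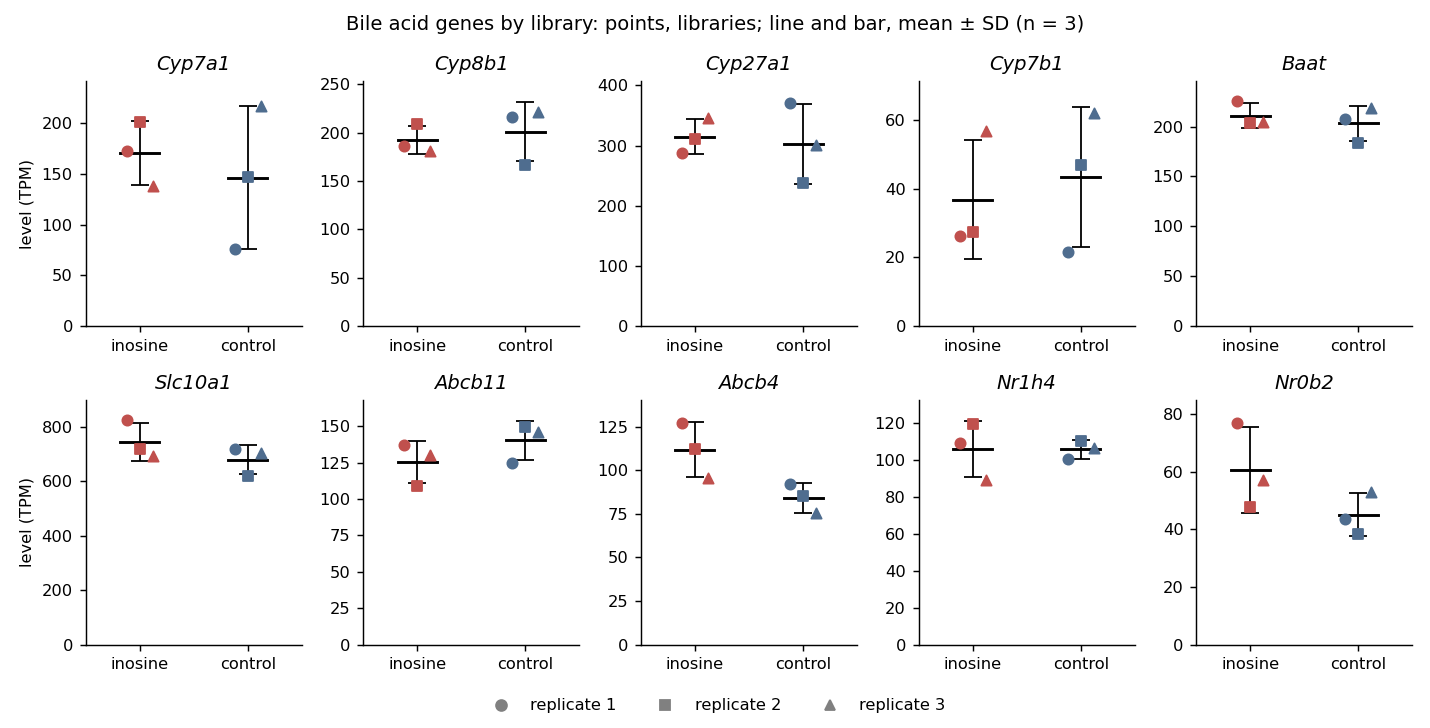
Level in TPM (y axis, from 0) of each of the 10 genes in the inosine libraries (left, red) and the control libraries (right, blue); markers give the replicate number, the line the mean and the bar the SD over 3 libraries. Abcb4 is the gene whose inosine libraries, at 95.6 to 127 TPM, all lie above its control libraries, at 75.3 to 92.3 TPM, and the control libraries of Cyp7a1 run from 76.1 to 216.7 TPM.

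Cyp7a1 (gene ID 13122, chromosome 4, 6265612 to 6275632 of GRCm39) encodes the rate-limiting cholesterol hydroxylase of the classical route. It measured 172.5, 201.1 and 138.4 TPM in inosine libraries 1 to 3, against 76.1, 147.0 and 216.7 TPM in control libraries 1 to 3. The lowest and the highest of the 6 values were both controls, and the inosine values lay between them. The log2 fold change was 0.14 (standard error 0.33, adjusted p = 0.88 by edgeR), and its 95% interval, from a 0.65-fold to a 1.86-fold level, leaves a sizeable difference in either direction undetectable at this number of libraries. The sign rested on control library 1: without it the log2 fold change was -0.18 (edgeR adjusted p = 0.59), and without control library 3 it was 0.53.

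Cyp8b1 (gene ID 13124, chromosome 9, 121743422 to 121745371), the hydroxylase that commits an intermediate to cholic acid, measured 186.5, 208.7 and 181.1 TPM in inosine libraries and 215.8, 166.4 and 221.2 TPM in controls. The groups overlapped, since control library 2 was the lowest of all. The log2 fold change was -0.13 (standard error 0.11, adjusted p = 0.62 by edgeR), and the interval ran from 0.77-fold to 1.09-fold. The sequence upstream of its transcription start is shown because it holds a motif of Hnf4a, the regulator of smallest p described further on. It covers chr9:121916306-121916555 of GRCm38.p6, minus strand, as given by RefSeq, with the 9 bases that match CAAAGTCCA in capitals.
Cyp8b1 upstream: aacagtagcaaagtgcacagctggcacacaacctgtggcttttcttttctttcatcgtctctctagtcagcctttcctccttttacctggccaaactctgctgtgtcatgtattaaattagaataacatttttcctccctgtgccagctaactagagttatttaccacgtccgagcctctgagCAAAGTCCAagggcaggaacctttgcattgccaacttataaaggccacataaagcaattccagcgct
The motif lies 67 to 59 bases before the start. It was found, on either strand, in the same 250-base window of 0.384% of 32851 RefSeq promoters. The motif was added after the sequences were read, so this share does not measure how unusual the match is. A match is a description of letters and not evidence of binding.

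Cyp27a1 (gene ID 104086, chromosome 1, 74752311 to 74777056), the mitochondrial hydroxylase that opens the alternative route, measured 288.5, 310.4 and 346.4 TPM in inosine libraries and 370.5, 237.6 and 301.7 TPM in controls. All inosine values lay within the control range, and the log2 fold change was 0.0049 (standard error 0.17, adjusted p = 0.99 by edgeR; interval 0.76-fold to 1.32-fold). Cyp7b1 (gene ID 13123, chromosome 3, 18126108 to 18298054), the oxysterol hydroxylase of the same route, measured 26.3, 27.3 and 56.9 TPM in inosine libraries and 21.6, 47.0 and 62.0 TPM in controls. Each group held both low and high libraries. Its log2 fold change was -0.27 (standard error 0.45, adjusted p = 0.81 by edgeR), with the widest interval of the 10, from 0.40-fold to 1.70-fold. Baat (gene ID 12012, chromosome 4, 49489416 to 49507915), the enzyme that conjugates bile acids to an amino acid, measured 225.4, 203.1 and 204.4 TPM in inosine libraries and 207.6, 183.3 and 218.4 TPM in controls. Its log2 fold change was -0.0042 (standard error 0.10, adjusted p = 0.99 by edgeR), and the interval of 0.85-fold to 1.18-fold is among the narrower ones. The value turned to 0.06 in the fits on TPM, where the median of all genes was 0.06 to 0.07, or 0.02 with no filter.

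Among the carriers, Slc10a1 (gene ID 20493, chromosome 12, 80999959 to 81015479), the sodium-dependent taurocholate uptake carrier of the sinusoidal membrane, measured 822.7, 716.9 and 692.2 TPM in inosine libraries and 716.8, 617.5 and 702.0 TPM in controls. The groups overlapped, with a log2 fold change of 0.07 (standard error 0.11, adjusted p = 0.80 by edgeR). Abcb11 (gene ID 27413, chromosome 2, 69068626 to 69172960), the bile salt export pump of the canaliculus, measured 136.8, 109.1 and 129.8 TPM in inosine libraries and 124.8, 149.6 and 146.1 TPM in controls. Control library 1 lay among the inosine values, and the other controls lay above all of them. The log2 fold change was -0.23 (standard error 0.15, adjusted p = 0.51 by edgeR), with an interval of 0.67-fold to 1.09-fold. Without control library 1 the log2 fold change was -0.32 (edgeR adjusted p = 0.30), and without inosine library 2 it was -0.09. An annotated antisense gene, Gm13613, and a processed pseudogene, Gm13614, overlap Abcb11. Whether counting used strand is not known here, so reads of these genes cannot be told apart.

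Abcb4 (gene ID 18670, chromosome 5, 8943614 to 9009226), the canalicular flippase that supplies phosphatidylcholine to bile, measured 127.3, 112.3 and 95.6 TPM in inosine libraries and 92.3, 85.2 and 75.3 TPM in controls. It was the only one of the 10 whose groups did not overlap. Inosine libraries lay above controls without overlap for 1 of 10 genes, against 11.1% of all genes tested, and below them for 0 of 10, against 9.8%. By library-scaled counts (CPM, scaled by the TMM method) Abcb4 averaged 289 ± 29 in inosine and 231 ± 21 in control (SD, n = 3 each). The log2 fold change was 0.32 (SE 0.11), with an unadjusted edgeR p of 0.019 and an adjusted p of 0.26, so the gene did not pass over all genes. DESeq2 gave an adjusted p of 0.18. A change at least as large, in either direction, was measured for 20.4% of the genes tested, and the 95% interval was 1.05-fold to 1.49-fold. Over all alternatives run, the log2 fold change stayed between 0.24 and 0.40. An annotated processed pseudogene on the same strand, Gm17936, overlaps Abcb4, and how reads they share were counted is not known here.

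Of the receptors, Nr1h4 (gene ID 20186, chromosome 10, 89290096 to 89369484), which encodes the bile acid sensor FXR, measured 109.1, 119.1 and 89.1 TPM in inosine libraries and 100.1, 110.2 and 106.3 TPM in controls. The highest and the lowest value were both from inosine livers, and the log2 fold change was -0.08 (standard error 0.09, adjusted p = 0.73 by edgeR; interval 0.82-fold to 1.10-fold). Nr0b2 (gene ID 23957, chromosome 4, 133280687 to 133283997), which encodes SHP, measured 76.8, 47.7 and 57.2 TPM in inosine libraries and 43.7, 38.4 and 53.1 TPM in controls. Inosine library 1 was the highest, and inosine library 2 lay below control library 3. The log2 fold change was 0.37 (standard error 0.19, adjusted p = 0.42 by edgeR), the largest positive value among these genes, with an interval of 0.95-fold to 1.76-fold. Without inosine library 1 it was 0.18, with the same direction.

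Nr0b2 and Abcb11 are both textbook targets of FXR, and their fold changes ran in opposite directions without either passing the test. The 250 bases before each start are shown to set their letters side by side, from RefSeq on GRCm38.p6: chr4:133553126-133553375, plus strand, for Nr0b2 and chr2:69342617-69342866, minus strand, for Abcb11. Capitals mark matches, on either strand, to the motifs searched.
Nr0b2 upstream: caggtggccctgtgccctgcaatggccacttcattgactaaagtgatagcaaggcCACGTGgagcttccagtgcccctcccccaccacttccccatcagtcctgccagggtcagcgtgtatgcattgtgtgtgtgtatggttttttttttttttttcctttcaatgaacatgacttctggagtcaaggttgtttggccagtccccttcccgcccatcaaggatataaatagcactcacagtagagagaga
Abcb11 upstream: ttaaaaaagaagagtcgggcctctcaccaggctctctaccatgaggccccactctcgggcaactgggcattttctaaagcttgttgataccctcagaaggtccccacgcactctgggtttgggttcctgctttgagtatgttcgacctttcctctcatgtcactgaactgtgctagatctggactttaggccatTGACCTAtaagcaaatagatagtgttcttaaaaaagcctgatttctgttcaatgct
In Nr0b2 the capitals are an E-box, CACGTG, the element read by clock proteins, 195 to 190 bases before the start; 6.02% of the RefSeq windows hold one. In Abcb11 they are TAGGTCA on the opposite strand, 56 to 50 bases before the start, which is the core of the element shared by the Rev-erb and ROR receptors (2.23% of windows). That stretch contains the nuclear receptor core AGGTCA (14.02% of windows). The exact inverted repeat of that core with 1 base between, the form FXR prefers, was found in neither window and in 0.00609% of all windows. Only exact matches were searched. In Abcb11 the letters aggccat stand directly before TGACCT, which makes such a repeat with 1 letter changed. Near matches were not searched across the windows, so how often one occurs is not known here. Promoter entries were matched for 7 of the 10 genes, which are Cyp27a1, Abcb11, Nr0b2, Abcb4, Cyp8b1, Nr1h4 and Slc10a1. Of the other windows, that of Nr1h4 held AGGTCA and the HNF1 core GTTAAT (6.43% of windows) and 1 of the 2 windows of Slc10a1 held AGGTCA. Those of Cyp27a1 and Abcb4 held none of the motifs searched. The remaining motifs, TCAAGGTCA and TCAAGGCCA of LRH-1, the direct repeat of AGGTCA with 1 base between, and TTACGTAA and TTATGTAA of the PAR bZIP factors, were in none of the 8 windows and in 0.387%, 0.511%, 0.0335%, 0.113% and 0.819% of all windows.

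**Figure D2:**
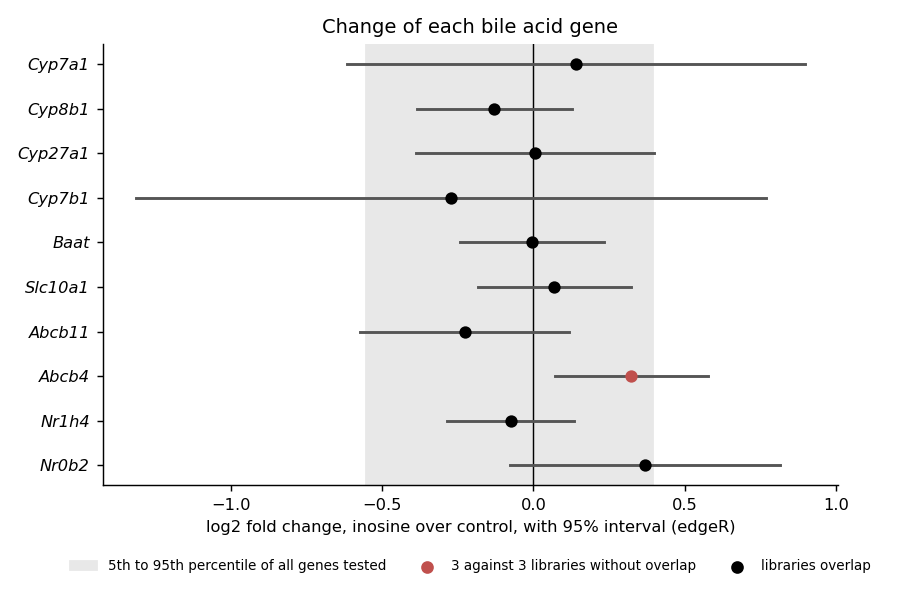
Log2 fold change of inosine over control from edgeR (x axis) for each gene, with its 95% interval as a line; the grey band runs from the 5th to the 95th percentile of all genes tested, -0.55 to 0.40. All 10 points lie inside the band, 9 intervals cross 0 and that of Abcb4, in red, does not before adjustment over all genes.

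Transcripts of different branches were set side by side as the log2 ratio of 2 transcripts in the same library. The data hold transcript levels only, so these ratios do not measure the balance of the routes themselves. Cyp8b1 over Cyp7a1, which sets the cholic acid enzyme against the entry enzyme, was 0.11, 0.05 and 0.39 in inosine libraries and 1.504, 0.18 and 0.03 in controls. Control library 1 stood alone, with 2.84 Cyp8b1 transcripts per Cyp7a1 transcript where the other 5 libraries had 1.02 to 1.31. The mean difference was -0.39 (two-sided exact permutation p = 0.7), and 0.08 without control library 1, -0.58 without control library 2 and -0.66 without control library 3. Cyp7b1 over Cyp7a1, the alternative against the classical route, was -2.71, -2.88 and -1.28 in inosine libraries and -1.81, -1.65 and -1.81 in controls. Inosine libraries 1 and 2 lay below every control and inosine library 3 above every control, with a mean difference of -0.54 (exact permutation p = 0.4). That difference was -1.04 without inosine library 3, -0.33 without inosine library 1 and -0.24 without inosine library 2. Abcb11 over Slc10a1, export against uptake, was -2.59, -2.72 and -2.41 in inosine libraries and -2.52, -2.05 and -2.26 in controls. The mean difference was -0.30 (exact permutation p = 0.2). That difference was -0.42 without control library 1, -0.18 without control library 2 and -0.29 without control library 3. Adjusted over the 3 ratios these p-values were 0.7, 0.6 and 0.6, and 3 against 3 libraries cannot give an exact p below 0.1.

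**Figure D3:**
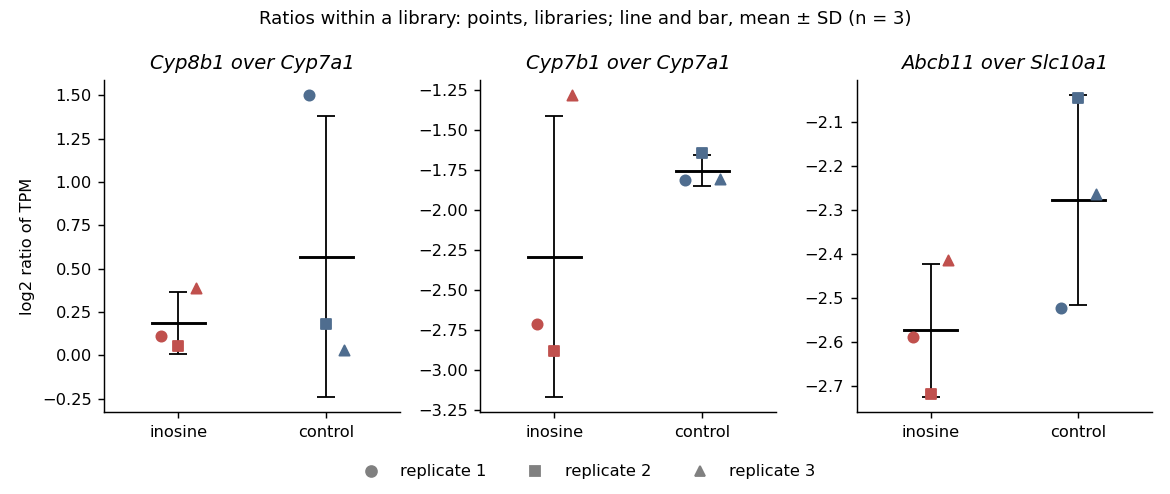
Log2 ratio of TPM (y axis) for 3 pairs of genes in the inosine libraries (left, red) and control libraries (right, blue), with the mean and SD over 3 libraries. Control library 1, at 1.504, stands apart in Cyp8b1 over Cyp7a1, and inosine library 3, at -1.28, in Cyp7b1 over Cyp7a1.

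The genes differed in how far replicates scattered. The pooled SD of log2 CPM within groups was 0.78 for Cyp7b1 and 0.57 for Cyp7a1, which placed them at percentiles 98.9 and 98.0 of the 7696 genes with at least 10 CPM on average. Nr0b2 followed at 0.31 and Cyp27a1 at 0.26. Nr1h4 (0.10), Slc10a1 (0.12) and Baat (0.12) lay at or below the median of all these genes, 0.12. For Cyp7a1 the SD was 0.15 among inosine libraries and 0.79 among controls, while for Cyp7b1 it was 0.74 among inosine libraries and 0.81 among controls. Control library 1 held the lowest level of both Cyp7a1 and Cyp7b1 and the highest of Cyp27a1. Control library 2 held the lowest level of 5 of the 10 genes, and inosine library 1 the highest of 4.

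Cyp7a1 is known to follow the daily clock, through Dbp and the Rev-erb receptors, and control library 1 also stood apart on clock genes. Dbp, a clock output activator, measured 67.1, 58.3 and 37.5 TPM in inosine libraries and 19.6, 142.2 and 131.7 TPM in control libraries 1 to 3. Nr1d1, which encodes Rev-erb alpha, measured 7.54, 5.43 and 5.77 TPM in inosine libraries and 2.93, 31.7 and 16.9 TPM in controls. Arntl, the core activator known as Bmal1, measured 0.92, 0.91 and 1.44 TPM in inosine libraries and 5.57, 0.73 and 0.42 TPM in controls. Thus control library 1 had the lowest Dbp and Nr1d1, the highest Arntl and the lowest Cyp7a1 of the 6. Of 17 clock genes tested, edgeR called 0 over all genes, with 3 higher and 1 lower at an unadjusted p under 0.05 (23.5% of the list, against 14.5% of all genes tested): Per2 (log2 fold change 0.61, adjusted p = 0.053), Hlf (0.26), Per1 (0.40) and Bhlhe41 (-2.08). Per2 passed in edgeR without control library 1 (0.65, adjusted p = 0.035). That fit called 56 genes over the whole table, against 1 with all 6 libraries. Per2 was also the 1 clock gene of 17 that DESeq2 called (adjusted p = 2.2e-06), against 1.92% of all genes. Bhlhe41 was barely expressed, at 0.12, 0.04 and 0.13 TPM in inosine libraries and 0.08, 0.84 and 0.27 TPM in controls, and was at -0.88 without control library 2. The part of the clock genes in the Cyp7a1 and Cyp7b1 values was not tested. Without control library 1, edgeR called 0 of the 10 bile acid genes, against 56 genes over the whole table. Dbp, Nr1d1 and Arntl are named here after their values were seen.

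**Figure D4:**
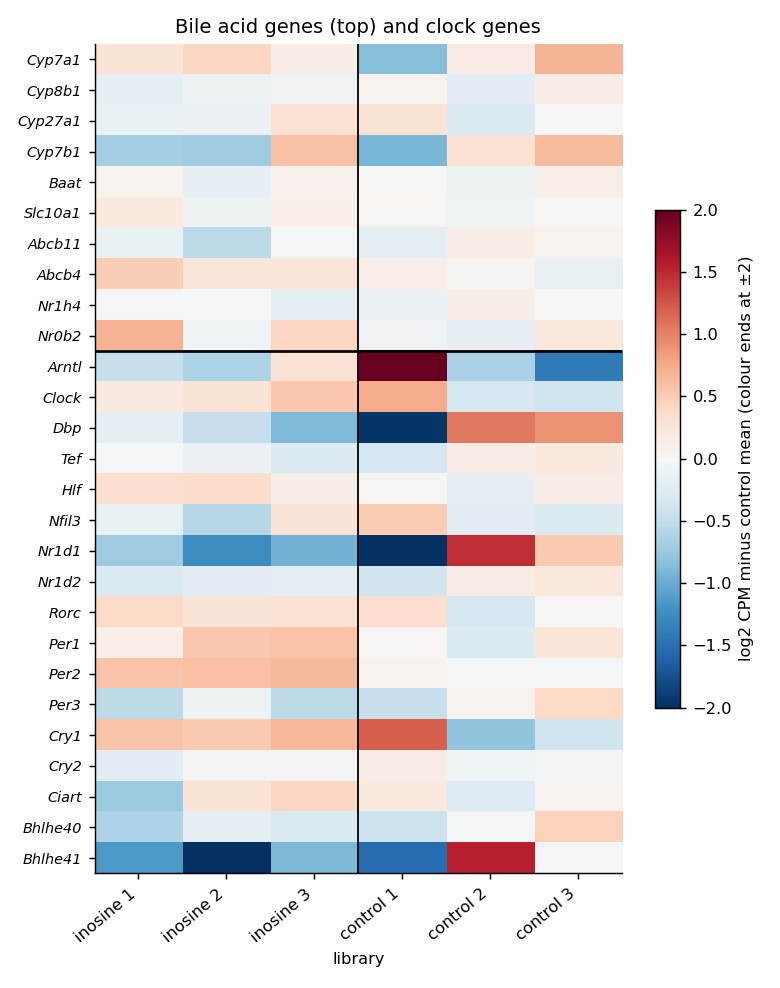
Log2 CPM of each library minus the mean of the controls (colour, ending at ±2) for the 10 bile acid genes above the line and 17 clock genes below it, with inosine libraries on the left. Control library 1 is the bluest for Cyp7a1 (-0.86), Dbp (-1.96) and Nr1d1 (-2.01) and the reddest for Arntl (2.07).

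Among the genes whose log2 CPM followed Cyp7a1 most closely over the 6 libraries were Vwa5a (Pearson r = 0.99), Proc (0.99), H2-Q10 (0.99) and Nxpe2 (0.98). None of them is among the 10, and H2-Q10 belongs to a family of close copies among which reads can be shared. An r above 0.9 was reached by 81 of 7695 genes (1.05%), and library depth and composition are shared by all of them. No p-value is given, and the list is a description.

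Around the 10, 53 further genes of bile acid metabolism were examined in 4 lists, of which 50 were in the table and 48 were tested. edgeR called 0 of the 48 over all genes, with 8 higher and 4 lower at an unadjusted p under 0.05 (25.0%, against 14.5% of all genes tested), and their median log2 fold change was -0.01. DESeq2 called 2 of the 48, Hnf4a and Hsd3b7 (4.17%, against 1.92% of all genes). The lists and their members were chosen with earlier results of these data known.

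The regulators held the gene of smallest p. Hnf4a, the hepatocyte nuclear receptor known to drive Cyp7a1 and Cyp8b1, measured 238.8, 244.0 and 231.3 TPM in inosine libraries and 170.0, 145.1 and 151.4 TPM in controls. Every inosine library lay above every control. The log2 fold change was 0.55 (standard error 0.10, adjusted p = 0.087 by edgeR) and stayed between 0.51 and 0.62 over the alternatives. DESeq2 called Hnf4a (adjusted p = 2.6e-05), as does the authors' deposited table. The deposited q-values also come from DESeq2 on the same libraries, so they are not a separate test. Cyp7a1 and Cyp8b1 themselves were at 0.14 and -0.13 and did not pass. Ppargc1a, the PGC-1 alpha coactivator, measured 3.15, 3.21 and 3.02 TPM in inosine libraries and 2.53, 2.21 and 2.05 TPM in controls (log2 fold change 0.42, edgeR adjusted p = 0.18). Zfp36l1, an RNA-binding protein that destabilises Cyp7a1 mRNA in mouse liver, measured 42.1, 34.3 and 44.6 TPM in inosine libraries and 66.3, 52.2 and 51.5 TPM in controls (-0.54, edgeR adjusted p = 0.23). Mafg, a repressor of bile acid synthesis genes, was at -0.34 (edgeR adjusted p = 0.24). Rxra, the partner receptor of FXR, was at 0.19, the xenobiotic receptor Nr1i2 at 0.28 and Foxa2 at -0.37, all named after their values were seen. Of the 16 regulators tested, 4 higher and 3 lower had an unadjusted edgeR p under 0.05, 43.8% of the list, against 14.5% of all genes tested. This list too was chosen with earlier results of these data known. Fgfr4 and Klb, which together form the receptor for the intestinal hormone that represses Cyp7a1, were at 0.07 and 0.02.

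Among 14 other enzymes tested, Hsd3b7, the dehydrogenase that acts right after the first hydroxylation of the sterol ring, measured 183.1, 224.1 and 152.2 TPM in inosine libraries and 222.6, 251.9 and 260.2 TPM in controls. By TPM inosine library 2 lay just above control library 1, while by scaled counts the groups did not overlap. The log2 fold change was -0.47 (standard error 0.12, adjusted p = 0.17 by edgeR; DESeq2 adjusted p = 0.017). Slc27a2, a very-long-chain acyl-CoA synthetase, measured 1273, 1178 and 849 TPM in inosine libraries and 834, 763.1 and 762.9 TPM in controls (0.41, edgeR adjusted p = 0.24). Its relative Slc27a5, the bile acid CoA ligase that works just before Baat, was at 0.10, and Cyp2c70, which makes the muricholic acids typical of mice, was at 0.21. Cyp39a1, another oxysterol hydroxylase, measured 19.5, 25.9 and 21.97 TPM in inosine libraries and 22.8, 7.6 and 10.5 TPM in controls. Its log2 fold change was 0.67 (edgeR adjusted p = 0.41). Cyp39a1 was picked with its levels already known, and control library 1 is its only control within the inosine range. Without that library the log2 fold change was 1.24 and passed (edgeR adjusted p = 0.038). This pass followed the removal of the discordant control, so it is not a separate test of the gene. In that fit edgeR called 56 genes over the whole table, against 1 with all 6 libraries. The list's median was -0.01, with 6 genes above 0 and 8 below.

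Of 13 other carriers tested, 6 were above 0 and 7 below, with a median of -0.04, and edgeR and DESeq2 each called 0. Abcc4, a basolateral export pump, was weakly expressed at 3.45, 1.90 and 0.82 TPM in inosine libraries and 1.09, 0.56 and 0.82 TPM in controls (log2 fold change 1.23, edgeR adjusted p = 0.30). Inosine library 3 equalled a control. Abcb1a, a multidrug export pump, was at 0.34 (edgeR adjusted p = 0.34). Slco1a1, an uptake carrier of organic anions, measured 10.6, 58.6 and 111.7 TPM in inosine libraries and 102.85, 133.6 and 122.1 TPM in controls. Inosine libraries 1 and 2 lay below every control and inosine library 3 among them (-1.004, edgeR adjusted p = 0.52). The value was -0.50 without inosine library 1 and -1.95 without inosine library 3. Among the 5 genes of bile acid detoxification the median was -0.23. Ugt1a1, the glucuronosyltransferase that also clears bilirubin, measured 619.1, 569.1 and 451.7 TPM in inosine libraries and 434.8, 380.1 and 452.6 TPM in controls (0.30, edgeR adjusted p = 0.31).

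**Figure D5:**
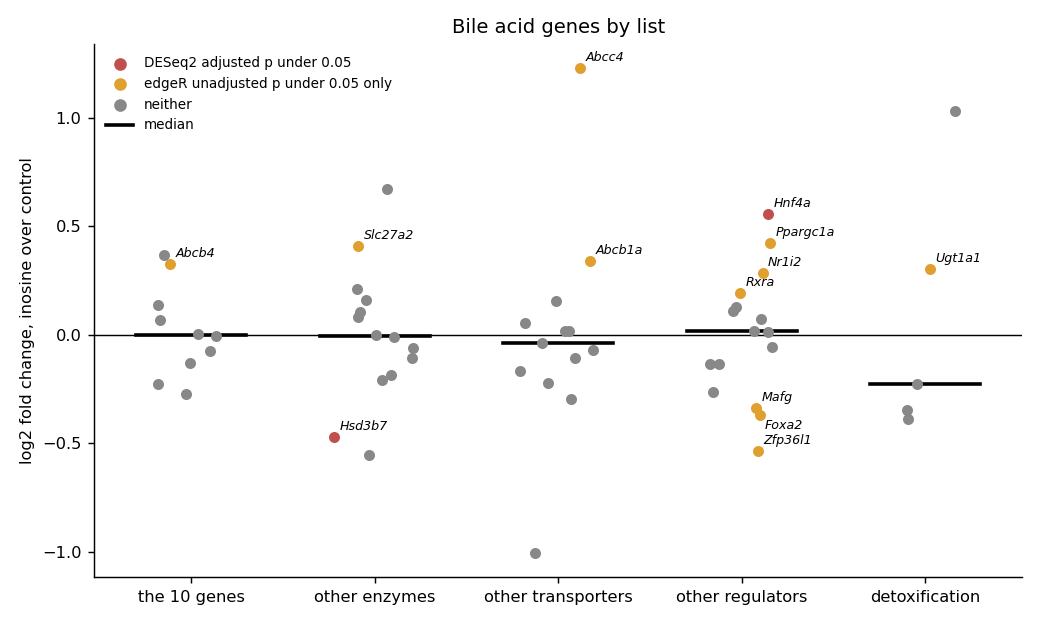
Log2 fold change of inosine over control (y axis) for each gene tested in 5 lists, with the median of each list as a bar; red points were called by DESeq2, amber points had an unadjusted edgeR p under 0.05 alone, and grey points neither. Hnf4a (0.55) and Hsd3b7 (-0.47) are the red points, and the medians lie between -0.23 and 0.02.

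The libraries held 16383896 to 17505035 counts each, and Alb made up 6.68% to 9.16% of the counts, which fits the liver label. Intervals cover counting error and replicate spread in these libraries only. All 5 erythroid genes tested were below 0, with summed levels of 1249 to 2382 TPM in inosine libraries and 2950 to 3556 TPM in controls. Hba-a2 (-1.23), Hbb-bs (-0.89), Alas2 (-0.99) and Hbb-bt (-0.85) had the smallest p there, with reads that near-identical globin copies can share. All 8 endothelial genes (summed 83.1 to 134.8 TPM in inosine and 120.6 to 134.4 TPM in control; Fcgr2b -0.49, Ptprb -0.53) and all 9 stellate genes (104.7 to 179.0 TPM in inosine and 142.1 to 162.6 TPM in control; Pdgfrb -0.66, Acta2 -0.83) were below 0, as were 7 of 8 Kupffer cell genes (Adgre1 -0.41). Of 6 bile duct markers tested, 2 were above 0 and 4 below, with a median of -0.14. Their list summed to 52.0 to 73.8 TPM in inosine libraries and 42.0 to 46.3 TPM in controls, mostly from Spp1 (0.58). The keratin gene Krt7, named after its values were seen, was at -0.55, and the ion channel gene Cftr was at 0 in some libraries. Hepatocyte markers had a median of 0.10 (Serpina1c -0.25), pericentral markers one of -0.14 (Cyp1a2 -0.30) and periportal markers one of 0.02 (Hal -0.31, Sdsl 0.44, Hsd17b13 0.43). Of intestinal and pancreatic markers, Fabp2 was at -0.21 and Cela1 at -0.73, and Muc2, Cpa1, Pnlip and Ctrb1 were at 0 in some libraries. Of all 12326 genes tested, 6387 were below 0. In edgeR 0 of these marker genes passed over all genes, against 0.00811% of all genes tested. DESeq2 called the 4 erythroid genes named, 80% of that list, against 1.92% of all genes. Their part in the values of the bile acid genes was not tested.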

How the data were processed

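Total RNA of mouse liver, taken up in Trizol per the labels' protocols, gave 3 inosine and 3 control libraries. The submitters' processing notes list Bowtie2, RSEM and the build GRCm39, without versions. The authors deposited estimated counts per gene, TPM and FPKM for each library. The deposited table also holds the authors' log2 fold change of the 2 groups, with a DESeq2 p-value and q-value, per the file headers. Their fold change is of inosine over control, as checked against the group levels (r = 0.82 across genes). FPKM values were not used. All 18 columns of library values matched a title, and 1 line of the table had no content. The sources used here do not say whether counting used strand. The table's strand differed from GENCODE M21 for 1831 of 15827 genes, Abcb11 among them, so no strand was taken from it.

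Counts were rounded and tested with edgeR 4.0.16 in R 4.3.3 (glmQLFit and glmQLFTest, TMM scaling, group as the only term, all 6 libraries, default filter at a count of 10), which left 12326 genes. Tests were two-sided, with Benjamini-Hochberg adjustment over all genes and a threshold of 0.05. The SE is the log2 fold change divided by the square root of F, and intervals are 95% and unadjusted. DESeq2 1.42.0, limma 3.58.1 (voom, and log2 of TPM plus 1 or 0.1 for genes averaging at least 1 TPM), another scaling, no filter, a replicate block and leaving out each library were alternatives. Pairs of libraries within a group differed by 27.3 to 115.1 in chi-square per gene, so none was a second deposit.

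The 10 genes and the lists were chosen with earlier results of these data known. All 10 are named. From each other list the text names up to 4 genes with an unadjusted edgeR p under 0.05, or the 1 of smallest p, and any other gene was chosen after its values were seen. For Cyp7a1 the rule takes the 5 genes of highest r with at least 10 CPM on average, of which 1 is not reported here. The promoter of Nr0b2 was chosen by role, those of Cyp8b1 and Abcb11 for their motifs, and the HNF4 motif was added after the sequences were read.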

Additional observations from a re-analysis of the deposited data

How the results depend on the processing

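Across 14 alternatives the 10 bile acid genes gave 140 log2 fold changes, of which 0 passed the threshold and 130 kept their sign. The 10 that turned belonged to 4 genes, with -0.178 the farthest from 0. Baat, at -0.0042, was at 0.0025 with no filter. It was at 0.0567 in the fits on log2(TPM + 1) with and without a filter and at 0.0570 on log2(TPM + 0.1). The median of all genes in these fits on TPM was 0.0615 with a filter, 0.0189 without and 0.0684 on log2(TPM + 0.1). Over the omissions of 1 library Baat ranged from -0.0523 to 0.0742. Over the same omissions Cyp27a1 ranged from -0.144 to 0.156 (negative without inosine library 3 or control library 2), Cyp7a1 from -0.178 (without control library 1) to 0.527 and Cyp7b1 from -0.833 to 0.0626 (without control library 3). The log2 ratio of Cyp8b1 over Cyp7a1 ranged from -0.656 to 0.0808, and was positive without control library 1. The count of all genes called, 1 in edgeR, was 9 with no filter, 223 with DESeq2, 6 with limma-voom, 0 in the 3 fits on TPM and 0 to 56 over the omissions, with 56 without control library 1. The further bile acid genes called numbered 0 in edgeR, 2 with DESeq2 and 0 to 1 over the omissions. The replicate numbers are not said to pair the libraries. Deviations of same-numbered libraries correlated at -0.04, -0.03 and -0.02, and those of differently numbered libraries at -0.08 to 0.12. With 3 libraries a group these values cannot settle whether libraries were paired. With a replicate block 0 genes were called. The cause of these differences was not tested. Each of the 10 genes had at least 514 counts in every library, and 3 libraries a group limit the precision.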
